A study of Mus musculus with 9 samples.

Results

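The TNF receptor superfamily of splenic type 2 conventional dendritic cells (cDC2) was described through 10 receptor genes, chosen by symbol, of the 24054 genes listed in every library. These were Tnfrsf1a, Tnfrsf1b, Tnfrsf4, Tnfrsf9, Tnfrsf11a, Tnfrsf13b, Tnfrsf14, Tnfrsf18, Tnfrsf21 and Tnfrsf26, and all 10 were among the 14452 genes that passed the filter on low counts. Bulk RNA-seq was available for 9 libraries from spleens of C57BL/6 mice carrying 2 copies of Clec9a-Cre and 2 of Rosa-tdTomato. In these mice, Cre driven by the Clec9a locus switches on the TOMATO reporter, so a TOM+ cell is one that expressed Clec9a itself or descends from a cell that did. Live, single, autofluorescence-negative cells positive for MHCII, CD11c and CD11b were sorted as TOM+ cDC2 at postnatal day 8 (3 libraries, "young TOM+"), as TOM- DC2 from mice of the same age (3 libraries, "young TOM-") and as TOM+ cDC2 from adults (3 libraries, "adult"). Of the adult libraries, 1 came from mice of 9 weeks and 2 from mice of 8 weeks. All groups shared the genotype, and no adult TOM- group was analysed here. Spleens of 1-week-old mice were pooled, so a young library does not stand for 1 animal.

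Receptors of this family are single-pass membrane proteins that bind trimeric ligands of the TNF superfamily through cysteine-rich domains. Some carry a cytoplasmic death domain and can recruit TRADD or FADD, whereas others bind TNF receptor-associated factors (TRAFs) directly and feed into the canonical and alternative NF-kB pathways. In dendritic cells, signals through the family are known for control of survival, maturation and exchange with T and B lymphocytes.

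The depth was 12783252 to 22809401 gene counts per library, and 26.1% to 31.6% of reads fell on no single gene. Libraries are named here by the number in their names, which was 81, 91 or 92 in both young groups and 91, 92 or 95 in adults. The meaning of the number is not given in the sources used here. All 12 cDC2 markers on the list were found, and their summed level was 17726 to 19262 TPM in young libraries and 30280 to 32531 TPM in adults, 88.3% or more of it from H2-Ab1. Of the 12, 9 were higher in adults than in young TOM+ cells (19.5% of all genes were) and 2 were lower (21.0% of all genes were). Itgam was at 126 to 168 TPM in young and 73.0 to 86.2 TPM in adult libraries, and Sirpa at 638 to 862 and 463 to 485 TPM. Esam was at 14.4 to 37.9 TPM in young and 72.6 to 90.7 TPM in adult libraries. The paper reports that ESAM-high cells are less frequent among these cells in neonates than in adults. The paper also proposes that small differences in composition could underlie some age differences, while it holds age to be the main contributor. The part of subset composition in the receptor values was not tested. Of the B-cell list, Cd79b held 57.6% to 94.0% of the sum, while Pax5 had no counts in young TOM- cells. Of the T-cell list, Cd5 held 76.1% to 94.5% and Cd28 had no counts in adults. Neutrophil markers summed to 32.0 TPM in 1 young TOM- library and to 0.840 TPM or less in young TOM+ cells. Red pulp macrophage markers summed to 180 to 227 TPM in young TOM+, 293 to 354 TPM in young TOM- and 101 to 154 TPM in adult libraries. Between the young groups 0 of the 7 tested passed in edgeR (1.60% of all genes did). All 7 were without overlap in CPM (16.6% of all genes were). The part of macrophage RNA in the receptor values was not tested. P-values measure the spread among these libraries only, which the paper calls biological replicates and which were pools of spleens in the young groups.

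The 10 genes lie on 6 chromosomes of GRCm38, the build also called mm10. Tnfrsf1b (chr4:145212368-145246870), Tnfrsf9 (chr4:150920155-150946104), Tnfrsf14 (chr4:154918487-154928620), Tnfrsf4 (chr4:156013595-156016613) and Tnfrsf18 (chr4:156026322-156028894) share chromosome 4. Tnfrsf4 and Tnfrsf18 are neighbours, 9708 bases apart. The remaining genes are Tnfrsf11a (chr1:105780673-105849444), Tnfrsf1a (chr6:125349723-125362483), Tnfrsf26 (chr7:143607685-143627845), Tnfrsf13b (chr11:61126283-61153170) and Tnfrsf21 (chr17:43016555-43089188).

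Promoter sequences from RefSeq (GRCm38.p6) were matched for 9 of the 10 genes, Tnfrsf26 being the exception, and the 250 bases before each annotated start were searched on both strands. Of the 3 stretches shown, the first 2 belong to the pair of TNF receptors, whose levels differed in their relation to age, and the last to Tnfrsf9. The Tnfrsf1a stretch (chr6:125349509-125349722, plus strand) leaves out 36 bases that lie in an exon of another Tnfrsf1a transcript. The Tnfrsf1b stretch (chr4:145246871-145247120, minus strand) is whole. For Tnfrsf9, only 30 bases before its second start (chr4:150927947-150927976, plus strand) are shown, because part of that window is exonic in another transcript. Capitals mark motif matches, and the sequences are written 5′ to 3′ along the gene.
Tnfrsf1a: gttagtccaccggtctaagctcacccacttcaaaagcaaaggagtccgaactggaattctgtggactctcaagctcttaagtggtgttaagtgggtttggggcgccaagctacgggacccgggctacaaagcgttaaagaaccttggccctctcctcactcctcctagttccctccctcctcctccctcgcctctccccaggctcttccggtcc
Tnfrsf1b: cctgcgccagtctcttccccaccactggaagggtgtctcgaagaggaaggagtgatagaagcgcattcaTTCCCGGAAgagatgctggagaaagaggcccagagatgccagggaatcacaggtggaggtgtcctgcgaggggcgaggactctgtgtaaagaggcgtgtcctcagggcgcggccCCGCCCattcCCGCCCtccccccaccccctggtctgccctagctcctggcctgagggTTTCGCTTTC
Tnfrsf9: agagcagctGGGGATTTCCCaggaggccct
In Tnfrsf1b, from left to right, the capitals mark a STAT motif (TTCNNNGAA), a pair of reverse-strand SP1 motifs (GGGCGG) and a reverse-strand interferon-stimulated response element that ends at the base before the start. These motifs were present in 7.01%, 32.7% and 2.97% of 32817 promoter windows of this length. The capitals in Tnfrsf9 mark overlapping matches to the NF-kB consensus, which was found in 7.25% of all windows and in no window of the other 8 genes. The same Tnfrsf9 window also held a STAT motif and an AP-1 motif (TGANTCA, in 6.75% of windows). The Tnfrsf1a stretch held no match, and its left-out bases held a STAT motif. A match describes letters only and does not show that a factor binds.

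The levels of the receptors spanned a wide range within each library. They are given as TPM, the share of transcripts in a library on a fixed scale, which corrects for transcript length, so that genes can be compared with each other. Tnfrsf1a and Tnfrsf1b, the genes of the TNF receptors TNFR1 and TNFR2, together gave 65.0% to 81.3% of the summed TPM of the 10 genes. In young TOM+ cells the mean levels fell in the order Tnfrsf1a (284 ± 65.3 TPM, SD, n = 3), Tnfrsf1b (153 ± 19.5), Tnfrsf13b (59.3 ± 11.6), Tnfrsf21 (37.5 ± 5.41), Tnfrsf18 (37.4 ± 4.01), Tnfrsf11a (19.7 ± 1.54), Tnfrsf14 (3.19 ± 1.06), Tnfrsf4 (2.56 ± 0.817), Tnfrsf9 (2.21 ± 0.497) and Tnfrsf26 (0.613 ± 0.0351). Ranges of Tnfrsf21 and Tnfrsf18 overlapped in this group, as did those of the neighbours among Tnfrsf14, Tnfrsf4 and Tnfrsf9. Young TOM- cells had the same first 3 genes. In adults, Tnfrsf1a (345 ± 56.7) and Tnfrsf1b (313 ± 26.0) overlapped, Tnfrsf18 (50.2 ± 5.41) came next, and Tnfrsf13b (31.5 ± 4.08) overlapped Tnfrsf11a (25.5 to 36.4 TPM). The summed TPM of the 10 genes was 534 to 667 in young TOM+, 541 to 701 in young TOM- and 719 to 914 in adult libraries.

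**Figure D1:**
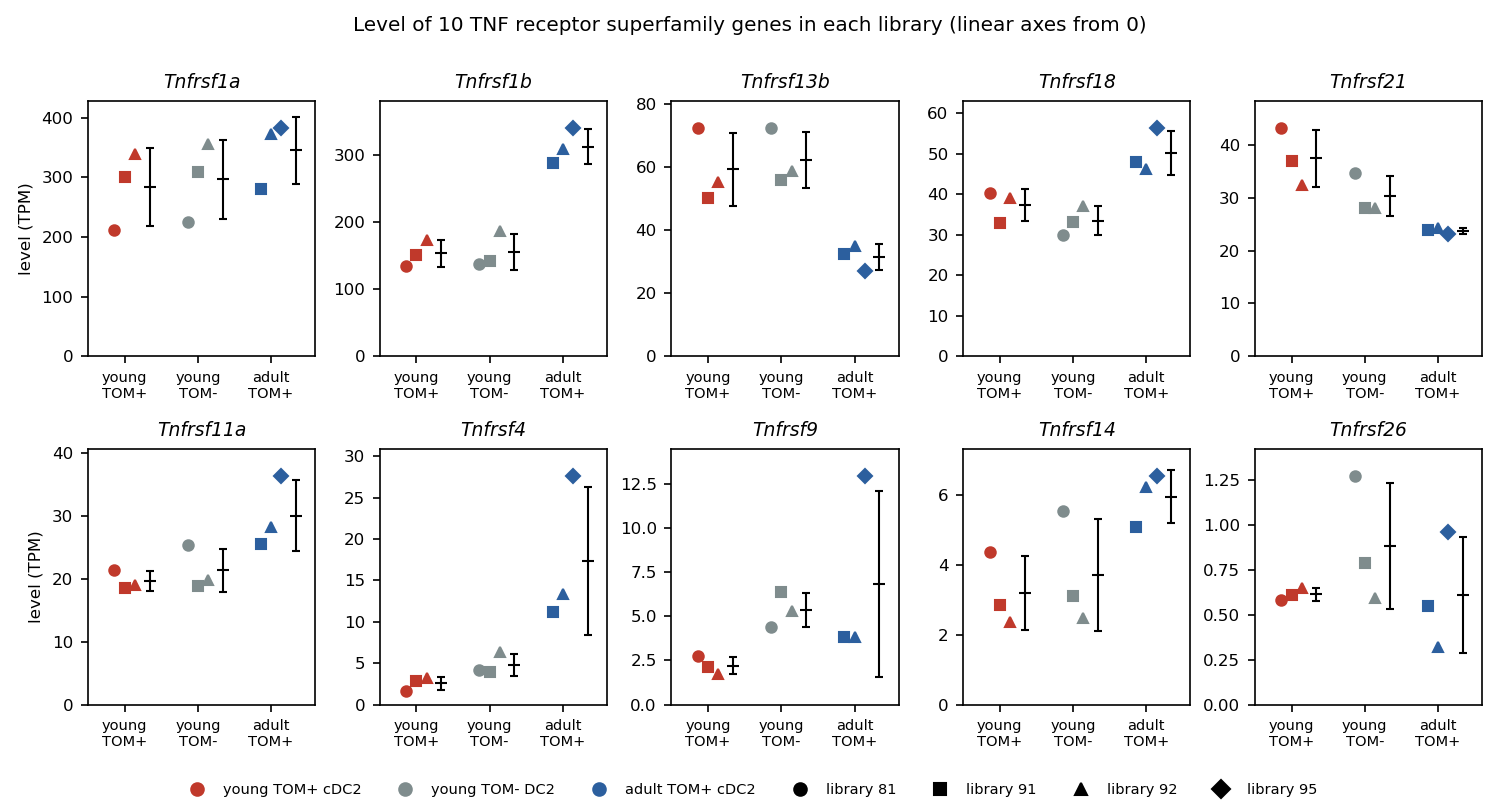
TPM (vertical axes, linear from 0, a scale for each gene) of the 10 receptor genes in each of the 9 libraries, with the marker shape giving the library number and the black bar the mean ± SD of 3 libraries. Tnfrsf1b, Tnfrsf4, Tnfrsf11a and Tnfrsf18 were higher in each adult library than in each young one, Tnfrsf13b and Tnfrsf21 were lower, and adult library 95 stood above the others for Tnfrsf4 (27.6 TPM) and Tnfrsf9 (12.9 TPM).

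To ask how receptor expression in TOM+ cDC2 differed with age, young TOM+ cells were compared with adults. Of the 10 genes, 8 passed an adjusted p of 0.05 (edgeR quasi-likelihood test, adjusted over all genes), against 40.6% of all genes tested. Tnfrsf1b, Tnfrsf4, Tnfrsf9, Tnfrsf11a, Tnfrsf14 and Tnfrsf18 were higher in adults (19.5% of all genes were), and Tnfrsf13b and Tnfrsf21 were higher in young cells (21.0% of all genes were). Beyond a log2 fold change of 1 were 4 genes, Tnfrsf1b, Tnfrsf4, Tnfrsf9 and Tnfrsf14, all higher in adults, against 12.8% of all genes (6.86% higher in adults and 5.96% higher in young cells). Without adult library 95 there were 2. The median log2 fold change, young over adult, was -0.67 for the 10 genes and 0.05 for all genes. For 8 of the 10 genes the groups did not overlap in CPM (gene counts scaled to library size and by TMM), against 51.1% of all genes. In bulk RNA, fewer cells that express a gene and less RNA of it per cell cannot be told apart.

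**Figure D2:**
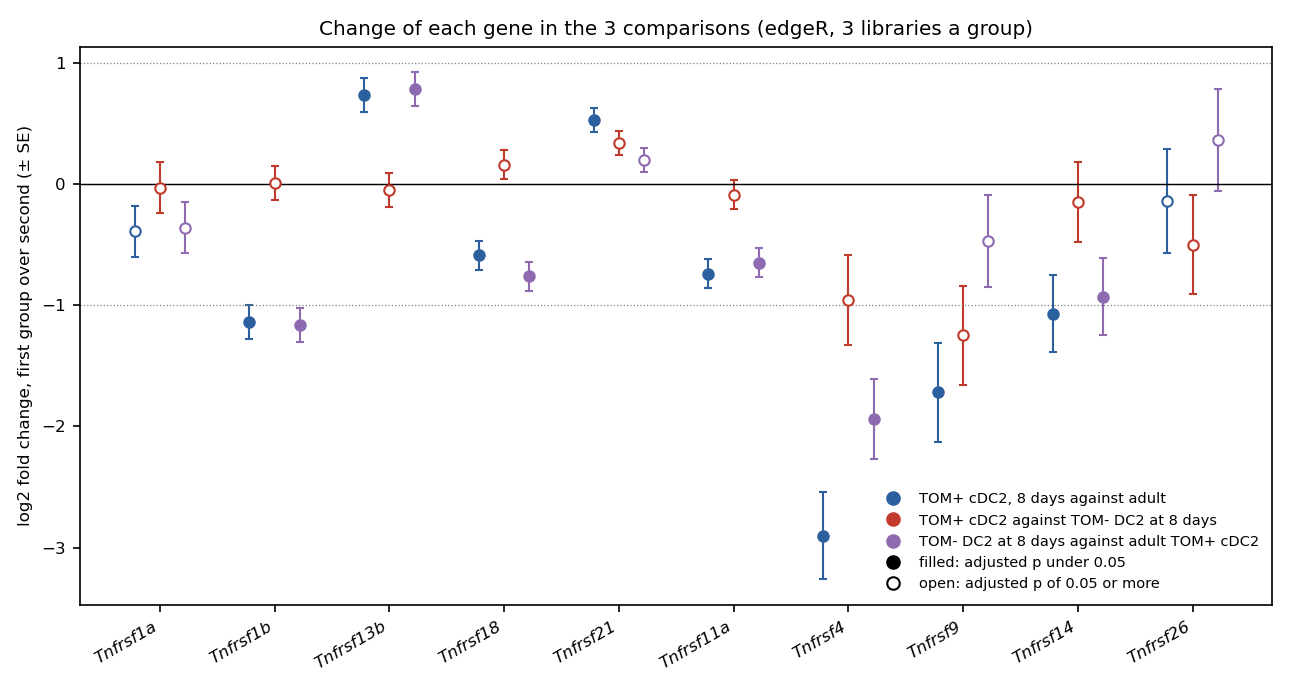
Log2 fold change (first group over second) with its standard error for the 10 receptor genes in the 3 comparisons, fitted with edgeR on 3 libraries a group; filled points passed an adjusted p of 0.05 and dotted lines mark a log2 fold change of 1 in either direction. Tnfrsf4 showed the lowest value (-2.90) in the comparison of young TOM+ with adult cells, and no point is filled for TOM+ against TOM- at 8 days.

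Of the pair of TNF receptors, the gene of TNFR2 differed with age and that of TNFR1 did not pass the test. TNFR2 has no death domain and binds TRAF2, and it responds best to membrane-bound TNF. Tnfrsf1b was at 135, 151 and 174 TPM in young TOM+ libraries 81, 91 and 92, at 138, 142 and 186 TPM in the same-numbered young TOM- libraries, and at 289, 309 and 340 TPM in adult libraries 91, 92 and 95. All adult libraries stood above all young ones, and the young groups overlapped. The fitted level was 2.21-fold higher in adults than in young TOM+ cells (log2 fold change -1.14, SE 0.14, edgeR adjusted p = 5.8e-05) and 2.23-fold higher than in young TOM- cells (-1.16, SE 0.14, edgeR adjusted p = 6.6e-05).

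Tnfrsf1a encodes TNFR1, the death domain receptor that recruits TRADD. It was at 212, 301 and 339 TPM in young TOM+ libraries 81, 91 and 92, at 225, 308 and 356 TPM in young TOM- libraries, and at 280, 373 and 382 TPM in adult libraries 91, 92 and 95. Age groups overlapped, and the log2 fold change was -0.39 (SE 0.21, edgeR adjusted p = 0.16) for young TOM+ and -0.36 (SE 0.21, edgeR adjusted p = 0.20) for young TOM- against adults. The spread of Tnfrsf1a went with the library number instead. Same-numbered young TOM+ and TOM- libraries differed by at most 0.09 in log2 TPM, whereas the range within either young group was 0.68 and 0.66. The order of libraries was the same in both young groups for 5 of the 10 receptor genes (Tnfrsf1a, Tnfrsf1b, Tnfrsf11a, Tnfrsf13b and Tnfrsf14), against 42.0% of 10112 genes with a mean count of at least 50.

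The ratio of Tnfrsf1b to Tnfrsf1a TPM, which does not depend on the scaling of a library, was 0.639, 0.502 and 0.514 in young TOM+ libraries 81, 91 and 92, and 0.611, 0.460 and 0.523 in young TOM- libraries. In adult libraries 91, 92 and 95 it was 1.03, 0.830 and 0.890. Every adult ratio stood above every young ratio, and the means were 0.551 ± 0.0760, 0.532 ± 0.0760 and 0.917 ± 0.104 (SD, n = 3).

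**Figure D3:**
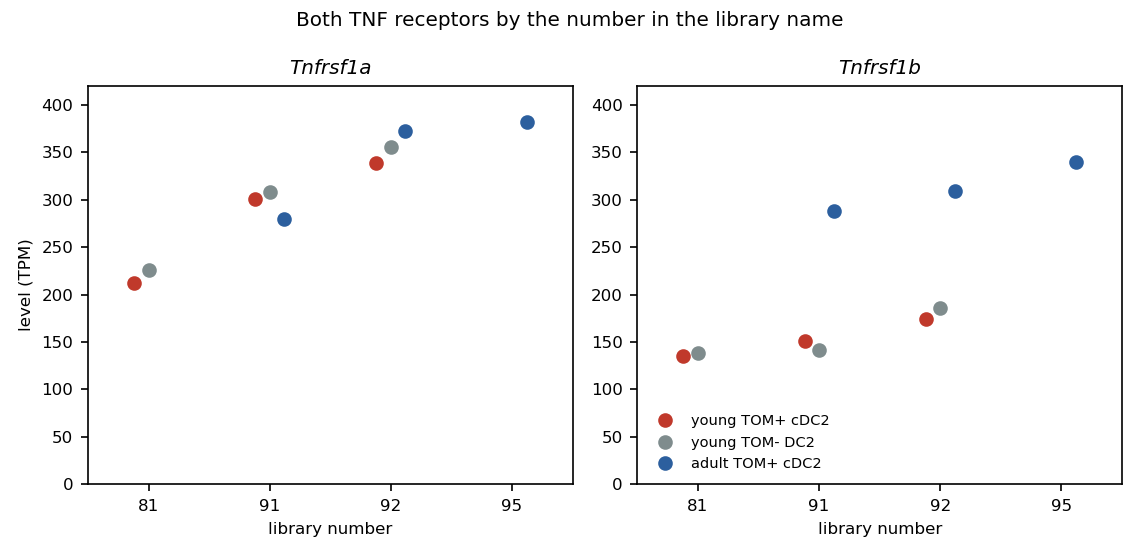
TPM (vertical axis) of Tnfrsf1a and Tnfrsf1b in each library, set out by the number in the library name (horizontal axis) and coloured by group. Same-numbered young TOM+ and TOM- libraries lie close together for both genes, and adult libraries stand apart for Tnfrsf1b (289 to 340 TPM) but not for Tnfrsf1a (280 to 382 TPM).

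Among the costimulatory receptors, best known from activated T cells, Tnfrsf4 showed the largest age difference of the 10 genes. It encodes OX40 and was at 1.63, 2.89 and 3.16 TPM in young TOM+ libraries 81, 91 and 92 (24 to 45 counts), at 4.12, 3.90 and 6.30 TPM in young TOM- libraries (45 to 110 counts) and at 11.2, 13.3 and 27.6 TPM in adult libraries 91, 92 and 95 (99 to 329 counts). No 2 of the 3 groups overlapped. Adults were 7.46-fold above young TOM+ cells (log2 fold change -2.90, SE 0.36, edgeR adjusted p = 5.1e-05) and 3.85-fold above young TOM- cells (-1.94, SE 0.33, edgeR adjusted p = 6.9e-04). Without adult library 95 the first value was -2.42 (edgeR adjusted p = 1.6e-04) and the second -1.47 (edgeR adjusted p = 0.0029).

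Tnfrsf9 encodes 4-1BB (CD137). It was at 2.73, 2.15 and 1.74 TPM in young TOM+, at 4.40, 6.37 and 5.30 TPM in young TOM- and at 3.80, 3.80 and 12.9 TPM in adult libraries, the last being library 95. Young TOM+ libraries were lowest throughout, and young TOM- libraries lay within the adult range. The log2 fold change of young TOM+ against adults was -1.72 (SE 0.41, edgeR adjusted p = 0.0054), which became -0.88 (edgeR adjusted p = 0.017) without adult library 95. Young TOM- against adults gave -0.47 (SE 0.38, edgeR adjusted p = 0.37), and 0.37 (edgeR adjusted p = 0.26) without library 95.

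Tnfrsf18, the gene of GITR and neighbour of Tnfrsf4, was more highly expressed in these cells than either. It was at 40.3, 32.8 and 39.0 TPM in young TOM+, at 30.01, 33.1 and 37.2 TPM in young TOM- and at 47.9, 46.2 and 56.3 TPM in adult libraries. Both young groups overlapped and adults were higher, by 1.51-fold over young TOM+ (log2 fold change -0.59, SE 0.12, edgeR adjusted p = 0.0015) and 1.69-fold over young TOM- cells (-0.76, SE 0.12, edgeR adjusted p = 3.4e-04). The 8 T-cell markers summed to 28.2 to 29.2 TPM in young TOM+, 44.1 to 48.6 TPM in young TOM- and 22.2 to 32.2 TPM in adult libraries. Of these, Cd3e was at 0, 0 and 0.0800 TPM in adults, while Cd3d was at 0.420 to 0.810 TPM there. Of the 4 regulatory T-cell markers, 1 passed as higher in young TOM+ cells and 1 as higher in adults (21.0% and 19.5% of all genes were). Foxp3 was at or under 0.410 TPM in every library, and Il2ra was at 0.160 to 0.430 TPM in young and 0.610 to 0.830 TPM in adult libraries. The part of T-cell RNA in the receptor values was not tested.

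Markers of mature or migratory DCs also differed with age, as did the 6 receptor genes that were higher in adults. The 8 markers on that list (Ccr7, Fscn1, Il4i1, Cacnb3, Socs2, Cd83, Relb and Ccl22) summed to 2134 to 2273 TPM in young TOM+, 2512 to 2838 TPM in young TOM- and 6444 to 8356 TPM in adult libraries, with the highest sum in adult library 95. Of the 8, 6 were higher in adults than in young TOM+ cells (19.5% of all genes were) and 7 were higher in adults than in young TOM- cells (16.9% of all genes were). Between the young groups 0 passed in edgeR (1.60% of all genes did), and 3 had an unadjusted p under 0.05. Ccr7, which guides DCs towards lymphoid T-cell zones, was at 311, 287 and 322 TPM in young TOM+ libraries and at 1550, 1493 and 2328 TPM in adults. The part of a mature fraction in the receptor values was not tested.

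**Figure D4:**
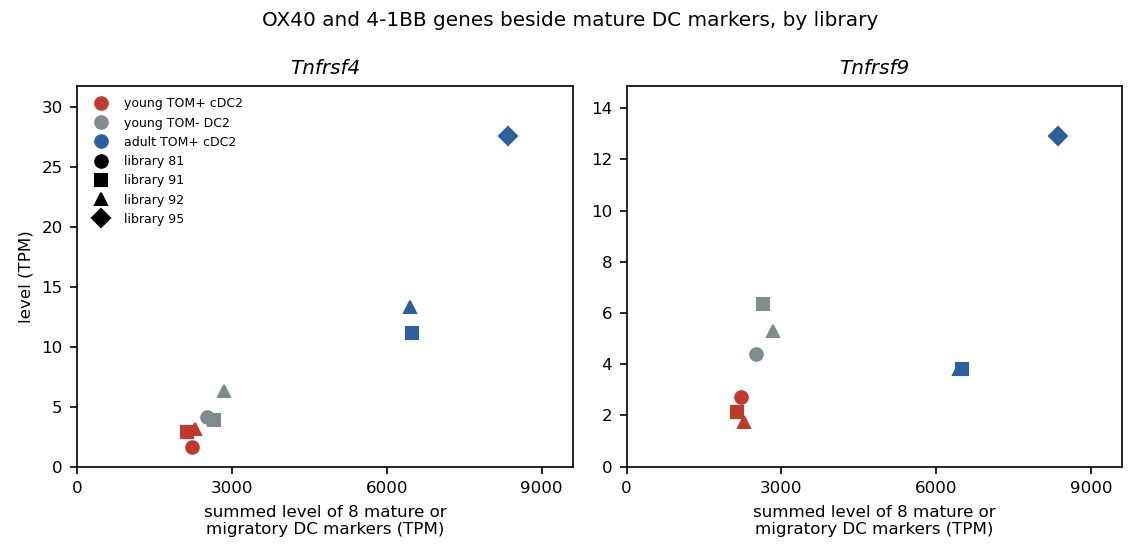
TPM of Tnfrsf4 and Tnfrsf9 (vertical axes) against the summed TPM of 8 mature or migratory DC markers (horizontal axis) in each library, coloured by group with the marker shape giving the library number. Adult library 95 was highest on all 3 measures (27.6, 12.9 and 8356 TPM), and the other 2 adult libraries lay within the young range for Tnfrsf9 only.

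Tnfrsf11a encodes RANK, through which RANKL prolongs DC survival and drives osteoclast formation. It was at 21.4, 18.5 and 19.1 TPM in young TOM+, at 25.3, 18.9 and 19.9 TPM in young TOM- and at 25.5, 28.3 and 36.4 TPM in adult libraries. Adult values were the highest, by a narrow margin over young TOM- library 81. The difference was 1.67-fold from young TOM+ (log2 fold change -0.74, SE 0.12, edgeR adjusted p = 3.0e-04) and 1.57-fold from young TOM- cells (-0.65, SE 0.12, edgeR adjusted p = 8.8e-04).

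Tnfrsf14 encodes HVEM, which binds LIGHT and the inhibitory receptor BTLA. It was at 4.38, 2.84 and 2.36 TPM in young TOM+, at 5.54, 3.11 and 2.49 TPM in young TOM- and at 5.09, 6.23 and 6.54 TPM in adult libraries, from 31 to 78 counts a library. Library 81 was high in both young groups, and in young TOM- cells it passed the lowest adult library in TPM, though not in CPM. Young TOM+ cells were below adults (log2 fold change -1.07, SE 0.32, edgeR adjusted p = 0.019) and so were young TOM- cells (-0.93, SE 0.32, edgeR adjusted p = 0.041). The first call was lost on leaving out young TOM+ library 91, young TOM+ library 92 or adult library 95 (edgeR adjusted p = 0.060 to 0.069), and the second on leaving out young TOM- library 91 or 92 or any 1 adult library (edgeR adjusted p = 0.071 to 0.14). Tnfrsf14 is also the gene for which the RSEM estimate was lowest relative to the STAR count, at 0.627 to 0.806 of it.

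The receptors that were higher in young cells were Tnfrsf13b and Tnfrsf21. Tnfrsf13b encodes TACI, a receptor for BAFF and APRIL that is best known from B cells. It was at 72.4, 50.3 and 55.4 TPM in young TOM+, at 72.5, 56.1 and 58.7 TPM in young TOM- and at 32.6, 35.0 and 27.0 TPM in adult libraries. Every young library stood above every adult one, by 1.66-fold for TOM+ (log2 fold change 0.73, SE 0.14, edgeR adjusted p = 0.0014) and 1.72-fold for TOM- cells (0.78, SE 0.14, edgeR adjusted p = 0.0011). Among B-cell genes, Cd79b was at 58.5 to 68.2 TPM in young and 25.3 to 35.6 TPM in adult libraries, whereas Ms4a1 was at 2.04 to 10.4 TPM in young and 13.8 to 22.1 TPM in adult libraries. The part of B-cell RNA in the Tnfrsf13b level was not tested.

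Tnfrsf21 encodes DR6, a death domain receptor. It was at 43.1, 36.9 and 32.4 TPM in young TOM+, at 34.6, 28.0 and 28.1 TPM in young TOM- and at 23.8, 24.2 and 23.2 TPM in adult libraries. Adults were lowest in every library and varied little. Young TOM+ cells were 1.45-fold above adults (log2 fold change 0.53, SE 0.10, edgeR adjusted p = 9.8e-04), while young TOM- against adult cells gave 0.20 (SE 0.10, edgeR adjusted p = 0.14).

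Tnfrsf26, encoded beside the decoy TRAIL receptor genes Tnfrsf22 and Tnfrsf23, was close to the limit of detection, at 0.580 to 0.650 TPM in young TOM+, 0.590 to 1.27 TPM in young TOM- and 0.320 to 0.960 TPM in adult libraries (7 to 33 counts). A difference in Tnfrsf26 was not detectable at this depth, with an edgeR adjusted p of 0.83, 0.84 and 0.54 in the 3 comparisons.

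Young TOM- cells against adults gave 6 of 10 receptor genes past the test, against 36.3% of all genes. Higher in adults were Tnfrsf1b, Tnfrsf4, Tnfrsf11a, Tnfrsf14 and Tnfrsf18 (16.9% of all genes were), and Tnfrsf13b was higher in young cells (19.4% of all genes were). The same adult libraries served both age comparisons. Beyond a log2 fold change of 1 were Tnfrsf1b and Tnfrsf4, against 11.3% of all genes (4.78% higher in adults and 6.50% higher in young cells), and the median over the 10 genes was -0.56, against 0.07 for all genes. For 7 of the 10 genes the groups did not overlap in CPM, against 47.6% of all genes.

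At 8 days, TOM+ cDC2 and TOM- DC2 were compared to ask whether cells with and without a history of Clec9a expression differ. With edgeR and no block for the library number, 0 of 10 receptor genes passed an adjusted p of 0.05, against 1.60% of all genes, and 3 had an unadjusted p under 0.05. Of all genes 0.125% were higher in TOM+ and 1.47% in TOM- cells, and 1.18% were also past a log2 fold change of 1 (0.0208% and 1.16%). The 3 genes were Tnfrsf4, Tnfrsf9 and Tnfrsf21, the same genes whose young groups did not overlap in CPM (16.6% of all genes did not). DESeq2 also called 0 of the 10.

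Same-numbered young libraries deviated together, and with the library number as a block these 3 genes passed, against 6.57% of all genes. Tnfrsf4 was lower in TOM+ than in TOM- cells within each pair of libraries (log2 differences of -1.0, -0.42 and -0.92 for numbers 81, 91 and 92), with a blocked log2 fold change of -0.94 (SE 0.20, edgeR adjusted p = 0.0087) and an unblocked one of -0.96 (SE 0.37, edgeR adjusted p = 0.39). Tnfrsf9 was also lower in TOM+ cells in every pair (-0.62, -1.33 and -1.37), with a blocked value of -1.24 (SE 0.19, edgeR adjusted p = 6.1e-04) and an unblocked one of -1.25 (SE 0.41, edgeR adjusted p = 0.25). Tnfrsf21 was higher in TOM+ cells in every pair (0.35, 0.40 and 0.24), with a blocked value of 0.33 (SE 0.06, edgeR adjusted p = 0.0040) and an unblocked one of 0.34 (SE 0.10, edgeR adjusted p = 0.15). Tnfrsf9 also passed without the block when adult library 95 was left out (edgeR adjusted p = 0.011) or when the young groups were fitted alone (edgeR adjusted p = 0.028). Like the blocked fit, where library 95 is alone under its number, these fits took no spread from it. They are therefore not separate checks.

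For the other 7 receptor genes, blocked log2 fold changes of TOM+ over TOM- cells ran from -0.46 (Tnfrsf26) to 0.17 (Tnfrsf18). Tnfrsf1a (-0.03, SE 0.21, edgeR adjusted p = 0.99), Tnfrsf1b (0.01, SE 0.14, edgeR adjusted p = 1.0) and Tnfrsf13b (-0.05, SE 0.14, edgeR adjusted p = 0.97) had unblocked values near 0. A marker of other lymphoid cells also differed between the sorts. Cd247, a T and NK cell signalling chain, was at 4.75 to 7.88 TPM in young TOM- libraries and at 0.370 TPM or less in the other libraries. Cd3e did not follow, at 0, 1.74 and 0.260 TPM in TOM- and 0.190, 1.22 and 0.240 TPM in TOM+ libraries. The part of the cells with Cd247 in the values of Tnfrsf4 and Tnfrsf9 was not tested.

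The other family members were described as a list of 18 receptor genes, of which 14 passed the filter on low counts. Against adults, 7 of 14 passed in young TOM+ cells (40.6% of all genes did), 5 higher in young (21.0% of all genes) and 2 higher in adult cells (19.5%). In young TOM- cells 10 of 14 passed (36.3% of all genes did), 7 higher in young (19.4%) and 3 higher in adult cells (16.9%). The list's median log2 fold change was 0.44 and 0.64 with genes near 0 counts set at their bound or left out, and 0.57 and 0.73 as fitted, against 0.05 and 0.07 for all genes.

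Of receptors with an activating role in DCs, Cd40 was at 56.2 to 71.9 TPM in young and 104 to 140 TPM in adult libraries (young TOM+ over adult -1.08, SE 0.11, edgeR adjusted p = 1.7e-05). The death receptor gene Fas was at 3.27 to 4.30 TPM in young TOM+, 5.20 to 8.29 TPM in young TOM- and 9.72 to 16.7 TPM in adult libraries (-2.13, SE 0.26, edgeR adjusted p = 4.5e-05), and between the young groups it passed only with the block (-0.90, edgeR adjusted p = 0.0090). These 2 genes were the ones on the list that were higher in adults than in young TOM+ cells.

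Higher in young cells was the BAFF receptor gene Tnfrsf13c, at 18.8 to 24.1 TPM in young and 3.69 to 4.88 TPM in adult libraries (young TOM+ over adult 2.27, SE 0.17, edgeR adjusted p = 1.3e-06). Thus both BAFF receptor genes detected here were higher in young cells, while the one other, Tnfrsf17, had at most 1 count in a library. Relt was at 115 to 135 TPM in young and 49.6 to 67.9 TPM in adult libraries (1.11, SE 0.12, edgeR adjusted p = 1.8e-05). The neurotrophin receptor gene Ngfr had at most 3 counts in an adult library and was at least 14.6-fold higher in young TOM+ and at least 9.37-fold higher in young TOM- cells, taking 3 counts per library as the floor.

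Between the young groups, Tnfrsf25 was the 1 of 14 listed receptor genes that passed without the block, against 1.60% of all genes. It encodes DR3, the receptor of TL1A known from T cells and innate lymphoid cells, and was at 0.0600, 0.130 and 0.270 TPM in young TOM+, at 3.28, 3.06 and 4.49 TPM in young TOM- and at 0.260, 0.0900 and 0.200 TPM in adult libraries. Young TOM- libraries stood above all others, and the log2 fold change of TOM+ over TOM- was -4.40 (SE 0.47, edgeR adjusted p = 2.6e-04). Tnfrsf10b, the TRAIL receptor gene, was at 0.570 to 0.880 TPM in young TOM- and 0.0900 to 0.30 TPM in adult libraries (1.57, SE 0.56, edgeR adjusted p = 0.044).

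The ligands of the 10 receptors, together with Ltb as a partner chain of Lta, were described as a list of 13 genes, all of which were tested. For young TOM+ against adult cells, 5 of 13 passed, against 40.6% of all genes, with Lta, Ltb, Tnfsf4 and Tnfsf14 higher in adults and Btla higher in young cells. The median was -0.51 with genes near 0 counts at their bound or left out and -0.39 as fitted. For young TOM- cells, 3 of 13 passed against adults, where 36.3% of all genes did, with Ltb and Tnfsf4 higher in adults and Tnfsf11 higher in young cells, and the median was -0.06.

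Tnf, the ligand of both TNF receptors, was at 87.3, 155 and 168 TPM in young TOM+ libraries 81, 91 and 92, at 117, 245 and 252 TPM in young TOM- libraries and at 152, 253 and 178 TPM in adults. As with Tnfrsf1a, library 81 was lowest in both young groups, and Tnf was lower in TOM+ than in TOM- cells within each number (-0.40, -0.63 and -0.55). The blocked value was -0.53 (edgeR adjusted p = 0.0048) and the unblocked one -0.55 (SE 0.32, edgeR adjusted p = 0.69). Lta, which encodes lymphotoxin alpha, also a ligand of both, was at 3.97 to 5.54 TPM in young TOM+, 9.03 to 12.1 TPM in young TOM- and 7.58 to 12.8 TPM in adult libraries (TOM+ over TOM- -1.21, SE 0.21, edgeR adjusted p = 0.0093).

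Tnfsf4, the ligand gene of OX40, followed age as its receptor did, at 0 to 0.270 TPM in young libraries and 3.61, 1.99 and 4.87 TPM in adults (young TOM+ over adult -4.47, SE 0.52, edgeR adjusted p = 3.4e-05, from 1 to 5 counts in young TOM+ libraries). Tnfsf9, the ligand gene of 4-1BB, was at 110, 176 and 160 TPM in young TOM+, at 85.6, 129 and 133 TPM in young TOM- and at 99.5, 141 and 163 TPM in adult libraries, with overlapping groups (0.03, SE 0.23, edgeR adjusted p = 0.93 for young TOM+ over adult). Tnfsf18, the ligand gene of GITR, was at or under 0.830 TPM in every library. Tnfsf11, the gene of the RANK ligand, was at 1.26, 4.86 and 4.08 TPM in young TOM- libraries, at 0 to 0.110 TPM in young TOM+ and at 0 counts in adults, so that it was at least 28.6-fold higher in young TOM- than in young TOM+ cells.

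Tnfsf14, which encodes LIGHT, was at 5.16 to 7.30 TPM in young TOM+, 7.78 to 9.61 TPM in young TOM- and 8.46 to 17.8 TPM in adult libraries (young TOM+ over adult -1.07, SE 0.24, edgeR adjusted p = 0.0041). Btla, the other HVEM partner, was at 65.8 to 76.2 TPM in young TOM+, 48.4 to 60.0 TPM in young TOM- and 33.8 to 55.6 TPM in adult libraries (0.66, SE 0.16, edgeR adjusted p = 0.0052). Another HVEM partner gene, Cd160, was at or under 0.260 TPM. Ltb, the most highly expressed gene on the list and a partner chain of Lta, was at 348 to 429 TPM in young TOM+, 522 to 597 TPM in young TOM- and 709 to 806 TPM in adult libraries, with none of the groups overlapping (TOM+ over TOM- -0.52, SE 0.09, edgeR adjusted p = 0.0087).

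The TACI ligands were scarce, with Tnfsf13b (BAFF) at 0.90 to 3.34 TPM and Tnfsf13 (APRIL) at or under 2 counts in each library. App, a proposed ligand gene of DR6, was at 168 to 242 TPM across libraries (young TOM+ over adult 0.14, SE 0.10, edgeR adjusted p = 0.26). Between the young groups 3 of 13 ligand genes passed without the block, against 1.60% of all genes (1.47% higher in TOM- cells), Lta, Ltb and Tnfsf11, all higher in TOM- cells, and 1 passed when young TOM+ library 91 or young TOM+ library 92 was left out. With the block 6 passed, against 6.57% of all genes, adding Tnf, Tnfsf9 and Btla.

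TRAF adaptors and other proximal signalling genes were described as a list of 32. Against adults, 20 of 32 passed in young TOM+ cells (40.6% of all genes did), 2 higher in young (21.0% of all genes) and 18 higher in adult cells (19.5%). In young TOM- cells 20 of 32 passed (36.3% of all genes did), also 2 higher in young (19.4%) and 18 higher in adult cells (16.9%). The medians were -0.32 and -0.31, against 0.05 and 0.07 for all genes. Between the young groups 0 passed in edgeR without the block (2 at an unadjusted p under 0.05), 1 in DESeq2 and 2 with the block, Traf4 and Tab1. Traf1, an NF-kB-induced adaptor that binds TNFR2, was at 258 to 308 TPM in young and 550 to 774 TPM in adult libraries (young TOM+ over adult -1.35, SE 0.10, edgeR adjusted p = 1.4e-06).

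Traf4 showed the largest difference of the signalling genes, at 7.07 to 10.7 TPM in young TOM+, 11.9 to 16.8 TPM in young TOM- and 65.6 to 79.1 TPM in adult libraries (young TOM+ over adult -3.25, SE 0.20, edgeR adjusted p = 3.4e-07). The genes of the inhibitor of apoptosis proteins cIAP1 and cIAP2, which join TRAF2 at TNF receptors, were also higher in adults. Birc2 gave -1.06 (SE 0.12, edgeR adjusted p = 2.3e-05) and Birc3 -1.12 (SE 0.10, edgeR adjusted p = 6.7e-06) for young TOM+ over adult cells. Higher in young cells were Casp8, the caspase of death receptor complexes (0.42, SE 0.09, edgeR adjusted p = 0.0023), and Tab1, a partner of the kinase TAK1 (0.79, SE 0.12, edgeR adjusted p = 3.0e-04).

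**Figure D5:**
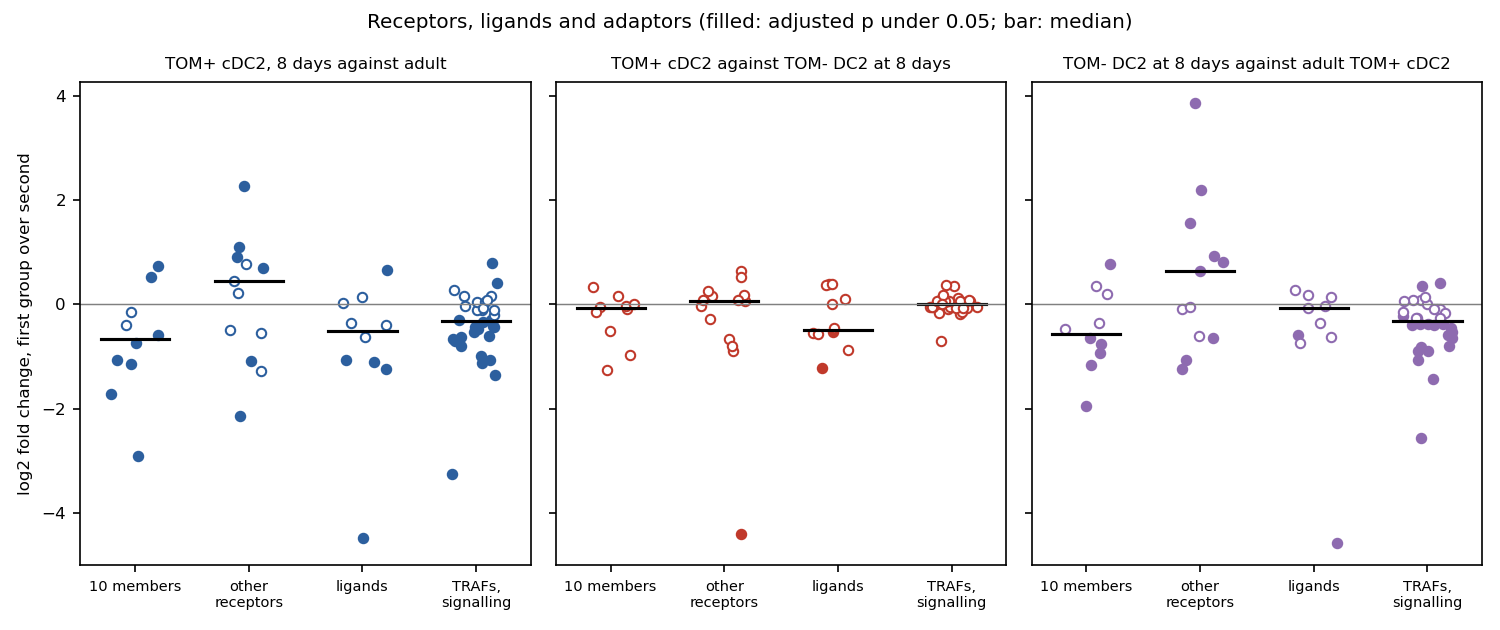
Log2 fold changes (vertical axis, first group over second) of the 10 receptor genes, 14 other receptor genes, 13 ligand genes and 32 TRAF and signalling genes in the 3 comparisons; filled points passed an edgeR adjusted p of 0.05 and bars are medians. Points of genes with 3 counts or fewer in every library of a group are left out, and in the median they were set at their bound or left out. The median of the other receptor genes lies above 0 in both age comparisons (0.44 and 0.64), and that of the 10 receptor genes below 0 (-0.67 and -0.56).

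The genes whose log2 CPM followed each receptor most closely over the 9 libraries are given as a description, since libraries share age groups and batches of preparation are not known. Tnfrsf1a was followed best by Cass4 (Pearson r = 0.990), then Ccnt1 and Gtf2b, and 46 of 10111 genes had an r above 0.9. Tnfrsf1b was followed by Lats2 (0.994), Havcr2 and Agpat6, with 705 genes above 0.9. The number of close genes was lower for Tnfrsf9 (7 genes, led by BC005561 at 0.963, Osbpl3 and Smpdl3a), Tnfrsf21 (63 genes, led by Nol9 at 0.968, Capn2 and Aldh1b1) and Tnfrsf26 (3 genes, Rbbp9 at 0.951, Edrf1 and Epc2). The remaining receptors, with 281 to 684 such genes, were led by Neurl3, Pias1 and Scin for Tnfrsf4, Uty, Snx20 and Dpp4 for Tnfrsf11a, Daglb, Snx2 and G6pdx for Tnfrsf13b, Rbm26, Syne1 and Stard7 for Tnfrsf14, and Uba6, Gtpbp4 and Alpk1 for Tnfrsf18. Uty is a gene of the Y chromosome. The paper used mice of both sexes, and the part of sex in the receptor values was not tested. Within the family, Tnfrsf1b had r = 0.94 with Tnfrsf18 and 0.93 with Tnfrsf4, and r = -0.94 with Tnfrsf13b.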

How the data were processed

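RNA was isolated with the PicoPure kit, amplified with SMART-seq v4, which keeps no strand, and sequenced single-end. Per the labels, the authors aligned reads to mm10 with STAR and quantified them with RSEM (versions not given in the sources used here), and deposited 2 tables per library. The counts used here are the deposited STAR gene counts, unstranded, and no-gene rows (26.1% to 31.6% of reads) stayed out of library sizes. The expected counts and the TPM values are as the authors deposited them from RSEM. FPKM was not used.

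The 14452 genes averaging 1 count or more per library were tested with edgeR 4.0.16 in R 4.3.3 (TMM, glmQLFit and glmQLFTest, all 9 libraries in 3 groups, adjusted p over all genes by Benjamini-Hochberg). Every log2 fold change, SE and adjusted p comes from this fit unless named. The code was tested on simulated data. Same-numbered young TOM+ and TOM- libraries had correlated deviations from their group means (r = 0.52 to 0.75 over 10112 genes for 3 pairs, against -0.52 to 0.15 for other pairs). A fit with the number as a block is therefore given where it changed a call between the young groups. In the age comparisons it also changed calls of ligand and signalling genes that are printed unblocked. Among them, for young TOM+ over adult cells, were Tnfsf9 (blocked 0.38, edgeR adjusted p = 0.010) and Tnf (blocked -0.38, edgeR adjusted p = 0.017). With adults, same-numbered pairs gave r = 0.01 to 0.17. The block was still fitted over all 9 libraries, so adult libraries 91 and 92 shared its terms with the young ones. Adult library 95 was alone under its number, so it added nothing to blocked fold changes or to their spread. The origin of the numbers is not given in the sources used here.

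All 10 receptor genes and all ligand genes were named, plus genes of the other lists past an adjusted p of 0.05 and a log2 fold change of 1 in any comparison, and for each receptor the 3 genes of highest r among those with a mean count of at least 50. Casp8, Tab1, Tnfrsf17, Ms4a1, Ccr7, Cd3d, Cd3e, Foxp3, Il2ra, Esam, Itgam, Sirpa and Cd247 were named after their values were seen. The members and lists were chosen with earlier results of these data known. The alternatives were other size factors and filters, DESeq2 1.42.0, limma 3.58.1 on log2 of TPM plus 1 or 0.1, rounded expected counts, only the groups compared, the block, and leaving out libraries.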

Additional observations from a re-analysis of the deposited data

How the results depend on the processing

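For young TOM+ against adult cells, 183 of the results of single receptor genes under an alternative kept direction and side of the threshold, 3 lost the call and 4 changed sign. For young TOM+ against TOM- cells these were 172, 0 and 13, with 5 gaining a call, and for young TOM- against adult cells 179, 7 and 2, with 2 gaining a call. The cause was not tested for any of them. Receptor genes past a log2 fold change of 1 in young TOM+ against adult cells numbered 2 with the replicate block and 2 to 4 on leaving out 1 library (2 without adult library 95). The block took no fold change from adult library 95, so it was not a check separate from leaving that library out. Between the young groups, receptor genes past the adjusted p numbered 1 with the young groups alone, 3 with the block and 0 to 1 on leaving out 1 library, of which 1, 1 and 0 to 1 were also past a log2 fold change of 1. With the block, 2 other receptor genes, 6 ligand genes and 2 signalling genes passed, DESeq2 passed 1 signalling gene, and leaving out 1 library gave 1 to 3 ligand genes and 0 to 1 signalling genes. For young TOM- against adult cells, 5 ligand genes passed with the block and 3 to 5 on leaving out 1 library.

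Signs changed only for receptor genes that had not passed. Tnfrsf26 in young TOM+ over adult cells became 0.02 and 0.11 in limma on log2(TPM + 1) and log2(TPM + 0.1) and 0.32 with the block, and ranged from -0.43 to 0.40 on leaving out 1 library (the last without adult library 95). Tnfrsf9 in young TOM- over adult cells became 0.42 with the block and ranged from -0.74 to 0.37 (the last without adult library 95). Between the young groups, leaving out 1 library gave ranges of -0.22 to 0.17 for Tnfrsf1a, -0.10 to 0.18 for Tnfrsf1b (-0.01 in limma with either pseudocount), -0.14 to 0.01 for Tnfrsf11a, -0.17 to 0.04 for Tnfrsf13b and -0.51 to 0.23 for Tnfrsf14. Tnfrsf14 in young TOM- against adult cells lost its call in limma (adjusted p = 0.085 and 0.090), and Tnfrsf21 in the same comparison passed at adjusted p = 0.050 and 0.047. With log2(TPM + 0.1) the median of all genes rose to 0.17 and 0.22 in the age comparisons, from 0.05 and 0.07. Leaving out both young libraries numbered 81, an alternative chosen after seeing the data, kept the counts within 1.5 times.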
